A study of Mus musculus with 15 samples.

Results

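*Ercc1* and 9 genes that act with it in nucleotide excision repair were followed across 2D cultures, 3D spheroids and microdissected spheroid regions of 21EM15 cells, an immortalized mouse lens epithelial line. The 9 partners were *Ercc2*, *Ercc3*, *Ercc4*, *Ercc5*, *Xpa*, *Xpc*, *Ddb1*, *Ddb2* and *Rad23b*. They were listed by name for their role in the pathway and matched by gene symbol. All 10 genes were present both in the 11677 genes of the culture data and in the 11299 genes of the region data, of which 11041 were common to both. *Ercc1* itself was chosen by its measured difference in log2 CPM between the internal and external regions. Its regional values are therefore described here without a test, and the question asked of the data was whether its partners changed with it.

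The samples, all of untreated cells of the same line labelled WT, comprised 4 from 2D cultures and 4 from whole 3D spheroids, and from dissected spheroids 4 internal and 3 external ones. The regions were cut from frozen sections by laser capture microdissection, each sample coming from a pool of spheroids, and the zone between the regions was not sampled. The study removed a further external sample because it differed from the other 3 in a principal component analysis, and that sample was not analysed here. The spread of the external samples, their lack of overlap with the internal ones and the regional tests all depend on this choice. RNA was extracted with the Nucleospin kit from the cultures and with the Arcturus PicoPure kit from the regions. Levels are given as log2 CPM, the log2 of read counts scaled to the library size. The culture and region data were normalized separately, so differences were tested only within each, and levels set side by side across them also carry that separate scaling and the different kits.

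Between 4044230 and 11702504 reads were counted per sample in the regions and between 7305053 and 9362587 in the cultures. Of 12 lens markers, 7 were detected in the regions, among them *Pax6*, *Prox1*, *Maf* and *Cryab*, whereas *Foxe3*, *Cryaa*, *Cdh1*, *Bfsp2* and *Mip* were absent from both data sets. None of the 3 endothelial markers was in either data set. The summed level of the 2 leukocyte markers in the region data (*Cd68* and *Csf1r*) lay between 0.771 and 10.6 CPM in the external and between 2.67 and 8.80 CPM in the internal samples. The summed level of the 4 fibroblast markers found there lay between 219.9 and 587.2 CPM in the external and between 403.5 and 494.9 CPM in the internal samples. Between the regions, *Prox1*, *Maf* and *Hsf4* of the lens markers and *Col3a1* of the fibroblast markers were called higher inside and *Col1a1* lower, and *Col3a1* and *Dcn* were called higher in 3D. The part of these marker differences in the results was not tested. Fewer cells of a type and less RNA per cell cannot be told apart in such bulk samples.

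Nucleotide excision repair removes bulky lesions, such as those left by ultraviolet light, by cutting out a short piece of the damaged strand. XPC with RAD23B, helped by the DDB1-DDB2 complex, recognizes the lesion across the genome, while a stalled RNA polymerase starts the transcription-coupled branch. TFIIH, whose helicases are XPB (*Ercc3*) and XPD (*Ercc2*), then opens the helix, XPA and replication protein A hold the bubble, and the nucleases XPG (*Ercc5*) and ERCC1-XPF (*Ercc1* and *Ercc4*) cut on the 3′ and the 5′ side of the lesion. DNA polymerases and ligases fill the gap. ERCC1-XPF also acts in the repair of DNA interstrand crosslinks. In the lens, epithelial cells keep dividing at the margin of the epithelium, whereas fiber cells leave the cell cycle and lose their nuclei.

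The reads of a 3′ library come from the end of the transcript, so the end of *Ercc1* is what was counted. *Ercc1* (ENSMUSG00000003549) lies on the plus strand at chr7:19344778-19356524 of GRCm38. GENCODE vM21 lists 2 complete protein-coding transcripts for it, which end in different exons. Ercc1-201, of 298 codons without the stop, ends at the 3′ end of the gene, and Ercc1-203, of 245 codons, ends upstream of it. The last 30 coding bases of Ercc1-201 are shown because this transcript ends at the annotated 3′ end of the gene. They are in lower case with the stop codon in capitals, from chr7:19356443-19356472 in exon 10 of 10.

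Ercc1-201: cacgaacccttcctcaaagtgcctcgaTGA

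The stretch was read from the reference transcript and ends in TGA. The carboxy-terminal part of ERCC1 is the one that pairs with XPF. Ercc1-201 has 52 bases after the stop codon and carries the polyadenylation signal AATAAA starting 25 bases before its end. Neither AATAAA nor ATTAAA was found in the last 40 bases of Ercc1-203. The deposited values are summed per gene, so the reads were not assigned to either transcript here. The last 511 bases of the *Ercc1* gene are overlapped on the other strand by the last exon of *Cd3eap*, which encodes a subunit of RNA polymerase I. Only sense reads were counted by the study. No stretch of 50 bases from the last 300 bases of the complete coding transcripts of any of the 10 members was shared with the transcripts of another gene.

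In the regions, *Ercc1* stood at 8.72, 9.20 and 9.12 log2 CPM in the 3 external samples and at 6.36, 6.42, 6.23 and 6.22 log2 CPM in the 4 internal samples. The external samples were thus all far above the internal ones, with no overlap. These levels rested on 2559, 2705 and 2074 reads in the external and 545, 738, 326 and 895 reads in the internal samples, well above the 3 reads taken as the smallest signal. The mean level was 9.01 ± 0.26 (SD, n = 3) outside and 6.30 ± 0.10 (SD, n = 4) inside, a difference of -2.71 on the log2 scale, or a 6.53-fold lower level inside. On the linear scale the mean was 521.8 ± 88.3 CPM (SD, n = 3) outside and 79.2 ± 5.48 CPM (SD, n = 4) inside, and the lowest external sample was still 4.93 times the highest internal one. By its absolute log2 fold change *Ercc1* ranked 245th of the 11299 genes, and 183 genes had a more negative one.

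In the cultures, no difference in *Ercc1* was found between 2D and 3D. It stood at 8.52, 8.69, 7.82 and 8.27 log2 CPM in 2D and at 8.51, 8.70, 7.75 and 8.23 log2 CPM in 3D, and the 2 groups covered the same range. The log2 fold change of 3D against 2D was -0.03 (SE 0.23), with a 95% confidence interval of -0.54 to 0.48 and an adjusted p of 0.945 by limma with Benjamini-Hochberg adjustment. In the order of mean levels, the external region came first at 9.01, followed by 2D at 8.33 ± 0.37 (SD, n = 4) and 3D at 8.30 ± 0.41 (SD, n = 4), and the internal region came last at 6.30. The 2 culture groups did not differ beyond their spread, and no test was made between them and the regions.

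**Figure D1:**
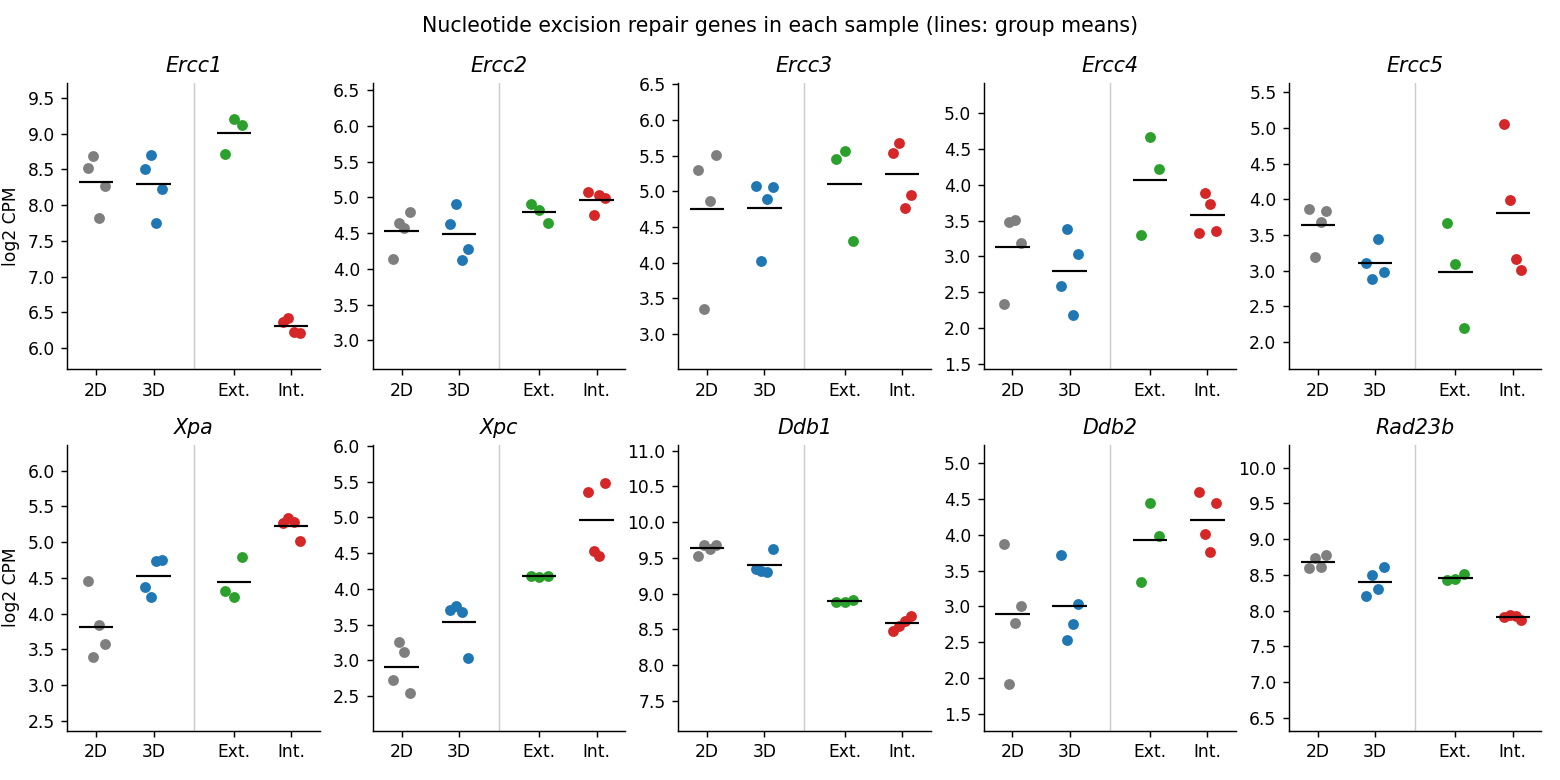
Level of each of the 10 genes in each sample in log2 CPM, with 2D and 3D cultures left of the grey line and external (Ext.) and internal (Int.) regions right of it; every panel spans 4 log2 units, points are samples and black lines are group means. *Ercc1* was between 8.72 and 9.20 in the external and between 6.22 and 6.42 in the internal samples, while most partners had overlapping groups.

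None of the 9 partners was called between the regions, where a call needed a log2 fold change beyond 1 in size and an adjusted p under 0.01, against 7.62% of all genes tested (limma). At an unadjusted p under 0.05 there were 4 of 9 partners (*Xpa*, *Xpc*, *Ddb1* and *Rad23b*), against 33.6% of all genes, and limma on voom-weighted reads also called 0. The groups did not overlap for these same 4 genes, against 29% of all genes. Of them, *Xpa* and *Xpc* were higher inside and *Ddb1* and *Rad23b* were lower inside, so the partners did not share 1 direction. The median log2 fold change of the 9 partners was 0.17, beside 0.04 over all genes. The 95% confidence intervals of the 9 partners ran from a lowest bound of -1.26, for *Ercc4*, to a highest of 1.81, for *Ercc5*.

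**Figure D2:**
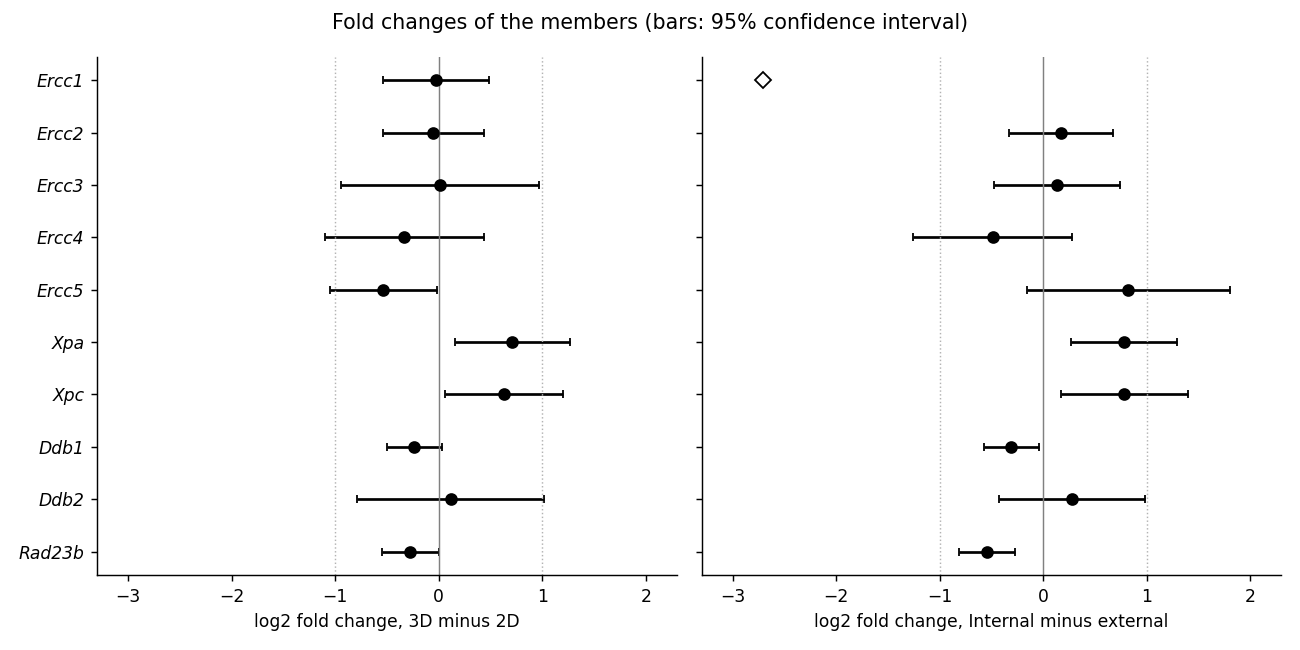
Log2 fold change of each gene, 3D minus 2D on the left and internal minus external on the right; points are estimates from limma, bars are 95% confidence intervals and dotted lines mark a change of 1. The open diamond is *Ercc1* at -2.71, drawn without an interval because this difference chose it. The intervals of the 9 partners between the regions run from -1.26 to 1.81.

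*Ercc4*, which encodes XPF, the catalytic subunit of the nuclease, was low in all samples. It stood at 3.30, 4.68 and 4.23 log2 CPM in the external and at 3.33, 3.89, 3.74 and 3.35 log2 CPM in the internal samples, and the groups overlapped. Its log2 fold change was -0.49 (SE 0.37, 95% confidence interval -1.26 to 0.28), with an adjusted p of 0.384 by limma. With 1 sample left out it lay between -0.87, without external sample 1, and -0.19, without external sample 2. In the cultures *Ercc4* stood at 2.34, 3.48, 3.51 and 3.18 log2 CPM in 2D and at 2.58, 3.39, 2.18 and 3.03 log2 CPM in 3D, with an adjusted p of 0.535 by limma.

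The number of 3′ reads does not scale with transcript length, so length does not enter the ratio of *Ercc1* to *Ercc4* within a sample. Other differences between genes in how their 3′ ends were captured were not measured. The ratios are therefore of reads and not of transcripts. The read level of *Ercc1* was between 23.1 and 42.8 times that of *Ercc4* in the external samples and between 5.61 and 8.16 times in the internal samples. It was between 19.9 and 72.6 times in 2D and between 36.7 and 61.0 times in 3D. Since *Ercc1* was chosen by the regional comparison, its ratios there are a description. *Ercc1* was first of the 10 genes in mean level in the external region and came after *Ddb1* and *Rad23b* in the other 3 groups.

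*Ercc5*, which encodes the other nuclease XPG, was at 3.66, 3.10 and 2.20 log2 CPM in the external and at 5.06, 3.99, 3.17 and 3.01 log2 CPM in the internal samples. Internal samples 1 and 2 were above the external samples, and internal samples 3 and 4 lay within the external range. The log2 fold change of 0.82 (SE 0.48, 95% confidence interval -0.16 to 1.81) had an adjusted p of 0.236 by limma. With 1 sample left out it lay between 0.41, without internal sample 1, and 1.16, without external sample 1. From 2D to 3D its log2 fold change was -0.54, with an adjusted p of 0.135 by limma.

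Among the partners, *Rad23b* had the lowest adjusted p between the regions, followed by *Xpa*. *Rad23b*, whose protein stabilizes XPC, stood at 8.43, 8.44 and 8.51 log2 CPM in the external and at 7.92, 7.94, 7.93 and 7.86 log2 CPM in the internal samples. The values within each region were tight and every internal sample was below every external one. The log2 fold change was -0.55 (SE 0.13, 95% confidence interval -0.82 to -0.28), with an adjusted p of 0.00356 by limma. This was past the p threshold but short of the fold threshold. At an adjusted p under 0.01 with no fold threshold, *Rad23b* was the 1 of 9 partners that passed, against 13.1% of all genes. The adjusted p of *Rad23b* lay between 0.00304 and 0.0472 over the alternative settings tried. It was between 0.0104 and 0.0148 without external sample 2, external sample 3, internal sample 1 or internal sample 4, 0.0319 with the replicate number as a block and 0.0472 without the variance trend.

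*Ddb1*, the large subunit of the lesion-binding complex and an adaptor of CUL4 ubiquitin ligases, was the most abundant partner. It stood at 8.88, 8.89 and 8.91 log2 CPM in the external and at 8.48, 8.54, 8.62 and 8.69 log2 CPM in the internal samples. The internal samples were all lower, by a log2 fold change of -0.31 (SE 0.13, adjusted p 0.0869 by limma). *Ddb2*, the subunit that contacts the lesion, overlapped between the regions, at 3.35, 4.45 and 3.98 log2 CPM outside and 4.60, 4.01, 3.76 and 4.45 log2 CPM inside. Its log2 fold change was 0.28 (95% confidence interval -0.43 to 0.99), with an adjusted p of 0.609 by limma.

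*Xpc*, the lesion sensor of the genome-wide branch, was at 4.18, 4.16 and 4.19 log2 CPM in the external and at 5.36, 4.53, 4.46 and 5.48 log2 CPM in the internal samples. The internal samples were all higher but fell into a low and a high pair. The log2 fold change was 0.78 (SE 0.29), with an adjusted p of 0.0613 by limma. *Xpa*, the scaffold of the incision complex, was at 4.31, 4.23 and 4.80 log2 CPM in the external and at 5.27, 5.34, 5.29 and 5.01 log2 CPM in the internal samples, which were again all higher. Its log2 fold change was 0.78 (SE 0.25, 95% confidence interval 0.26 to 1.29), with an adjusted p of 0.0267 by limma.

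The TFIIH helicases showed no regional difference beyond their spread. *Ercc2*, the XPD helicase, stood at 4.91, 4.83 and 4.64 log2 CPM outside and at 5.07, 4.75, 5.04 and 4.99 log2 CPM inside. Its log2 fold change was 0.17 (95% confidence interval -0.33 to 0.67), with an adjusted p of 0.664 by limma. *Ercc3*, the XPB translocase, spread over 5.45, 5.56 and 4.31 log2 CPM outside and 5.53, 5.68, 4.77 and 4.95 log2 CPM inside. Its log2 fold change was 0.13 (95% confidence interval -0.48 to 0.74), with an adjusted p of 0.797 by limma.

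Between 2D and 3D, 0 of the 10 members were called, against 4.43% of all genes tested (limma), and voom-weighted limma also called 0. At an unadjusted p under 0.05 there were 3 members (*Ercc5*, *Xpa* and *Xpc*), against 33.7% of all genes. The groups overlapped for all 10 members, whereas they did not overlap for 24% of all genes. The median log2 fold change of the 10 members was -0.04, beside -0.03 over all genes. The largest difference was that of *Xpa*, at 4.46, 3.39, 3.84 and 3.57 log2 CPM in 2D and 4.38, 4.24, 4.73 and 4.76 log2 CPM in 3D. Its log2 fold change was 0.71 (SE 0.25, 95% confidence interval 0.16 to 1.27), with an adjusted p of 0.0739 by limma.

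*Xpc* differed by 0.63 on the log2 scale, with an adjusted p of 0.113 by limma, and lay between 2.55 and 3.25 log2 CPM in 2D and between 3.03 and 3.76 log2 CPM in 3D. *Rad23b* had a log2 fold change of -0.28 (95% confidence interval -0.55 to 0.00) and *Ddb1* of -0.24, with adjusted p-values of 0.149 and 0.191 by limma. *Ercc2*, *Ercc3* and *Ddb2* had log2 fold changes between -0.05 and 0.12, with adjusted p-values between 0.867 and 0.990. The interval of *Ercc3* was wide, from -0.94 to 0.96, with 2D sample 2 at 3.35 log2 CPM and the other 2D samples between 4.87 and 5.50.

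The remaining nucleotide excision repair genes were counted by step, and no difference between steps was tested. A further 41 genes of the pathway were in both data sets, and 9 of them were called lower inside and 0 higher, against 4.35% of all genes called lower and 3.27% called higher. Of these 9 genes, 8 belonged to gap filling and ligation and 1 to replication protein A. The count of 9 was between 6 and 10 with 1 sample left out. It was 3 without the variance trend, where the calls over all genes were 324 instead of 861. Before the gap filling step, 1 of 23 further genes was called, and their median log2 fold change was 0.18. Within these 23, the 3 replication protein A genes were all below 0, with a median of -0.80, 1 of them (*Rpa2*) called and *Rpa1* at -0.80 with an adjusted p of 0.0123 by limma. The 18 gap filling and ligation genes had a median of -1.01, and 17 of them were below 0.

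In the other early lists, 0 of 5 recognition and ubiquitin ligase genes, 0 of 8 other TFIIH subunits and 0 of 7 transcription-coupled repair genes were called between the regions, with medians of 0.18, 0.26 and 0.14. At an unadjusted p under 0.05 there were 1, 1 and 2 genes in these lists, beside 33.6% of all genes, of which 7.62% were called. In the transcription-coupled list *Hmgn1*, a nucleosome-binding protein, was at -0.80 (SE 0.15) with an adjusted p of 0.000413 by limma, and *Elof1*, an elongation factor of RNA polymerase II, was at -0.67 (SE 0.17) with an adjusted p of 0.00483. Both were short of the fold threshold. The largest differences in the other 2 lists were those of the ubiquitin ligase scaffold *Cul4b*, at 0.55 with an adjusted p of 0.214, and of the cyclin H gene *Ccnh*, at 0.71 with an adjusted p of 0.0633.

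The called genes of the late steps also act in DNA replication. *Lig1*, the ligase that joins Okazaki fragments and seals repair patches in dividing cells, stood at 7.59, 8.07 and 8.44 log2 CPM outside and between 5.19 and 6.11 log2 CPM inside. It fell by 2.32 on the log2 scale (SE 0.22, adjusted p 5.61e-08 by limma). *Pole*, the catalytic subunit of DNA polymerase ε, fell by 3.50 (SE 0.59), *Rfc5*, a subunit of the clamp loader, by 2.50 (SE 0.36), and *Rfc4* by 1.95 (SE 0.48). *Rpa2*, a subunit of the single-strand binding protein, fell by 1.38 (SE 0.23), and *Rfc2*, *Rfc3*, *Pold1* and *Pold2* fell by between 1.12 and 1.32. *Lig3*, a ligase that can seal repair patches outside of DNA replication, was at 0.10 and its partner *Xrcc1* at -0.25, with adjusted p-values of 0.848 and 0.437 by limma. Genes with a role in replication were also among the uncalled ones of this list, such as *Rfc1* at -0.0015, *Pold3* at -0.28 and *Pcna* at -0.79. The adjusted p-values of these 3 were 0.996, 0.700 and 0.0876 by limma.

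**Figure D3:**
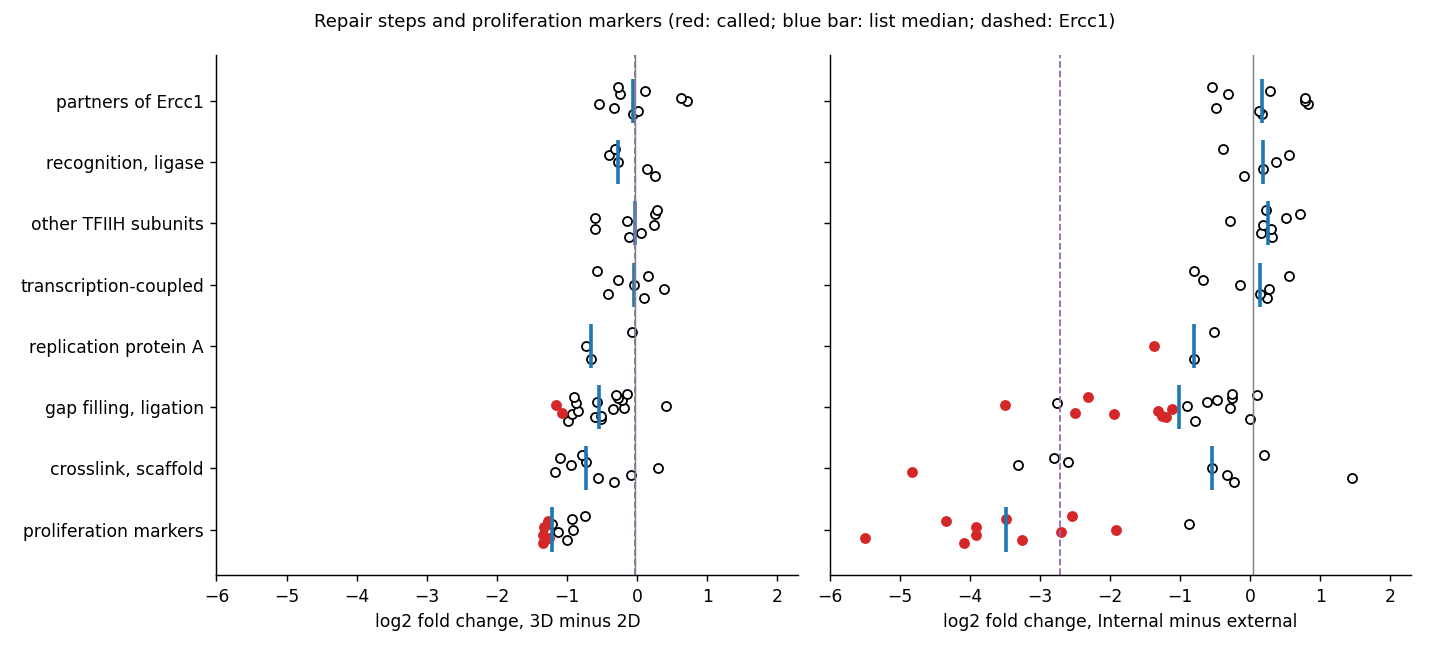
Log2 fold changes of the genes of each list, 3D minus 2D on the left and internal minus external on the right; points are genes (red where called), blue bars are list medians, the grey line is the median of all genes and the dashed line is *Ercc1*. Inside against outside, *Ercc1*, chosen by this difference, is at -2.71 and lies away from its 9 partners. It lies within the ranges of the gap filling genes (-3.50 to 0.10, median -1.01) and the crosslink and scaffold genes (-4.82 to 1.45). The range of the proliferation markers (-5.49 to -0.87) also holds it. In 3D against 2D *Ercc1* lies at -0.03.

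The proliferation markers were lower inside, as *Ercc1* was, and also lower in 3D. Inside, 10 of 11 were called lower (all but *Mcm4*), against 4.35% of all genes. The median of the 11 was -3.49, and their summed level lay between 1049 and 1320 CPM outside and between 118.6 and 165.9 CPM inside. In 3D, 5 of 11 were called lower (*Mki67*, *Ccna2*, *Ccnb1*, *Mcm3* and *Mcm5*), against 1.51% of all genes. The median of the 11 was -1.21, while *Ercc1* stood at -0.03. The gap filling genes had a median of -0.54 in 3D, and *Pole* and *Rfc5* were called lower, at -1.16 and -1.08. These were 2 of 41 further pathway genes, against 1.51% of all genes called lower, and the count was 0 without the variance trend and without 2D sample 3, 2D sample 4, 3D sample 1 or 3D sample 3. The part of the proliferation difference in the regional value of *Ercc1* was not tested.

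Other lists described the surroundings of *Ercc1*. Of 9 genes for crosslink repair and the scaffold of ERCC1-XPF, 1 was called between the regions, 7 were below 0 and 4 had an unadjusted p under 0.05, beside 7.62% of all genes called and 33.6% at that p. The called gene was *Eme1*, a partner of the MUS81 nuclease, with between 31 and 57 reads in the external samples and 0 in all 4 internal samples. Against a floor of 3 reads per library, it was at least 12.1-fold lower inside. *Slx4*, the scaffold that binds XPF, was at -0.23 (SE 0.62) with an adjusted p of 0.829 by limma, at no more than 44 reads in any region sample. The Fanconi anemia genes *Fanca*, *Fancd2* and *Fanci*, which act in crosslink repair, were at -3.31, -2.60 and -2.80, with adjusted p-values of 0.0101, 0.0214 and 0.0493 by limma.

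Of 16 p53 targets, 1 was called higher inside and 0 lower, against 3.27% and 4.35% of all genes. At an unadjusted p under 0.05 there were 11 of 16, against 33.6% of all genes, and among those whose groups did not overlap 5 were higher and 6 lower inside, beside 29% of all genes not overlapping. The called gene was *Gadd45a*, a DNA damage-inducible gene, at 1.58 (SE 0.23, adjusted p 1.93e-05 by limma). Between the cultures *Bax*, a promoter of apoptosis, was the 1 gene of 16 called, at -1.05, against 4.43% of all genes. *Gadd45a* was higher in 3D there, at 2.72 (SE 0.59), and its groups did not overlap. Its adjusted p of 0.0112 by limma was short of the p threshold. In base excision and mismatch repair the calls between the regions were lower ones. They were *Ung* and *Neil3* of 14 base excision repair genes and *Exo1* of 8 mismatch repair genes, beside 4.35% of all genes called lower. None of 10 end joining genes was called, the largest difference being that of *Nhej1* at -1.77 (adjusted p 0.0541 by limma), and 3 had an unadjusted p under 0.05, beside 33.6% of all genes. In 3D against 2D, *Ung*, *Exo1* and the recombination gene *Brca2* were called lower, and *Lig4* had the largest end joining difference, at -1.59 with an adjusted p of 0.0964 by limma.

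The neighbours of *Ercc1* on chromosome 7 were examined because *Ercc2* lies close to it. Of 9 annotated genes that start within 50000 bases of its start, 4 were in the region data and 0 were called, while 1 (*Cd3eap*) had an unadjusted p under 0.05. *Cd3eap*, which overlaps its 3′ end on the other strand, was at -0.64 (SE 0.27, adjusted p 0.0928 by limma) between the regions and at -0.56 (adjusted p 0.0723) between the cultures. *Ppp1r13l*, an inhibitor of p53, was at -0.69 (adjusted p 0.276 by limma). *Fosb*, an AP-1 transcription factor, was at -1.33 (SE 0.76, adjusted p 0.230 by limma). *Ercc2*, whose start is 37232 bases downstream, was at 0.17 as given above.

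**Figure D4:**
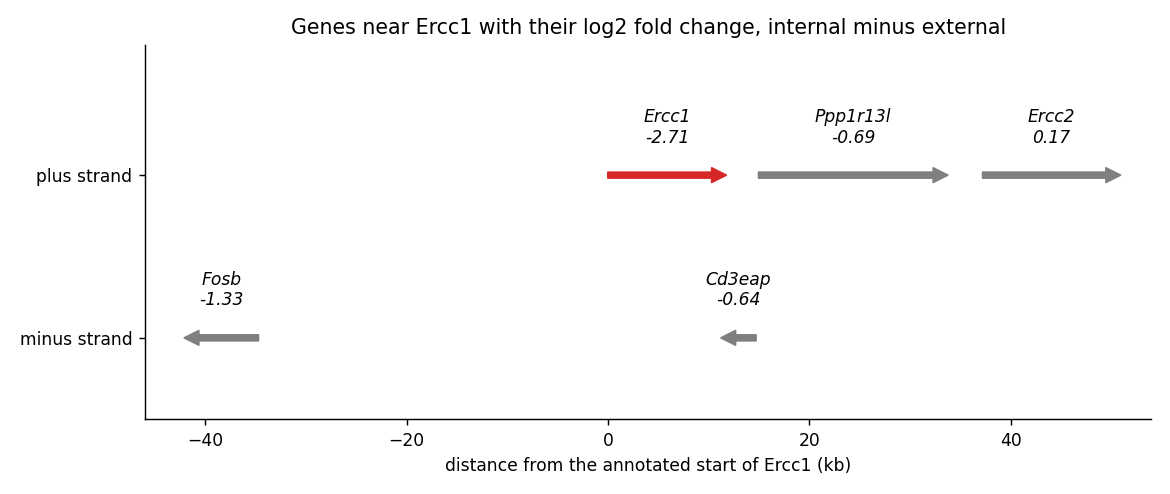
Genes in the region data that start within 50 kb of *Ercc1*, drawn to scale by their distance from its annotated start in kb and split by strand, with the log2 fold change of internal minus external under each name. *Ercc1* is at -2.71, and its 4 neighbours lie between -1.33 and 0.17.

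The genes most like *Ercc1* were sought by Pearson correlation over all 15 samples, after each data set was centred on its own gene mean, among the 6496 genes whose mean reached 4 log2 CPM in both. These correlations are descriptions, since the samples share groups and the regional difference of *Ercc1* dominates its pattern. The first was *Timp1*, an inhibitor of metalloproteinases, with r = 0.97, which had a mean of 9.22 log2 CPM outside and of 6.67 log2 CPM inside. It was followed by *Rpl6*, a ribosomal protein gene, *Hbegf*, a ligand of the EGF receptor, *Cdca7l* and *Etv4*, an ETS transcription factor, each with r = 0.95. Their log2 fold changes were between -2.55 and -0.80 between the regions and between -0.15 and 0.07 between the cultures. The most opposite genes were *Abca1*, a cholesterol transporter, with r = -0.97, the basement membrane collagens *Col4a1* and *Col4a2*, and *Erbin* and *Dag1*. Of the partners above that level, *Rad23b* had r = 0.80 and ranked 290th, *Ddb1* had r = 0.61, *Ercc2* -0.16, *Ercc3* -0.17 and *Xpa* -0.59.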

How the data were processed

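RNA was measured by QuantSeq 3′ end sequencing in 15 samples. The authors trimmed the reads, kept sense reads, aligned them with STAR 2.7.8a to GRCm38.p6, counted unique reads per gene with featureCounts 1.6.0, removed genes with low CPM and tested genes with edgeR. The annotation release is not given in the sources used here. For each sample the authors deposited log2 CPM, scaled separately in 2 tables (cultures and regions). The tables also hold the authors' fold changes and p-values, which were not used. The spacing of the log2 values gave back whole reads (within 0.05) for 100% of values. PCR copies cannot be told apart, so read floors cover counting error only.

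Tests were made within a table by limma 3.58.1 in R 4.3.3 on the deposited log2 CPM of all genes, two-sided, with a variance trend and p-values adjusted by Benjamini-Hochberg. A call needed a log2 fold change beyond 1 in size and an adjusted p under 0.01. The fold changes subtract 2D from 3D and external from internal, on log2 values that hold the authors' prior count, which understates changes of low genes. Confidence intervals are not adjusted. Each replicate had its own dish or pool of spheroids, all of 1 cell line, and p-values measure the spread between these. The functions were tested on simulated data. The members and lists were chosen with earlier results of these data known. The genes named are the members; the called genes of each list, or else the one with the largest absolute fold change; the genes starting within 50 kb of *Ercc1*; and the 5 genes most and least like it. *Slx4*, *Fanca*, *Fancd2*, *Fanci*, *Lig3*, *Xrcc1*, *Rfc1*, *Pold3*, *Pcna*, *Hmgn1* and *Elof1* were also named after their values were seen, *Hmgn1* being also the largest of its list. The result of 1 list, and of 1 gene that the rule names, is not reported here. Positions come from GENCODE vM21, which held 11676 of 11677 and 11298 of 11299 IDs, and the sequence from its transcripts. Other computations used Python 3.11.15, numpy 2.4.6, pandas 2.3.3 and matplotlib 3.10.9. The alternatives tried are given in the closing section.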

Additional observations from a re-analysis of the deposited data

Results flagged for a closer look

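In 30 groups of 4 samples (the 10 members in 2D, 3D and internal samples), the sample farthest from the others was compared with Dixon's critical value of 0.829 for the gap over the range. It was exceeded in 2 groups, and chance gives about 1 in 20. *Xpc* in 3D sample 4 was at 3.03 log2 CPM, below the other 3D samples at 3.68 to 3.76. *Ddb1* in the same sample was at 9.62 log2 CPM, above the others at 9.30 to 9.34. The cause was not tested.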

How the results depend on the processing

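Besides other thresholds and leaving out each sample, the alternatives were median-ratio scaling, a robust prior, a fit without the variance trend, prior counts of 0.5 and 5 reads, genes with a mean of 1 log2 CPM or more, voom weights and a replicate block. The 20 fold changes of the members (10 genes in 2 comparisons) were recomputed 310 times in all, and none of the 19 tested ones gained a call under both thresholds together, the regional value of *Ercc1* being given without a test. Each threshold alone was crossed between the regions: the adjusted p of *Rad23b* rose above 0.01 in some, up to 0.0472 without the variance trend, and the log2 fold change of *Ercc5* exceeded 1 without external sample 1 (1.16), internal sample 3 (1.03) or internal sample 4 (1.09) and with the block (1.09), and was 0.41 without internal sample 1 and 0.43 without external sample 3. An estimate took the other sign in 17 of the 310, all in 6 of the fold changes (*Ercc1*, *Ercc2*, *Ercc3* and *Ddb2* between the cultures, *Ercc3* and *Ddb2* between the regions), none of which was called. The regional log2 fold change of *Ercc1* lay between -2.85 and -2.61. No member was called between the cultures under any of 18 alternatives. Between the regions 1 partner, *Rad23b*, was called without the fold threshold, and leaving out single samples gave 0 in every case. Of the further pathway genes, 2 were called between the cultures, 0 without the variance trend and 7 without the fold threshold, and between 0 and 4 with 1 sample left out: 0 without 2D sample 3 or 4 or 3D sample 1 or 3, 1 without 2D sample 1 or 3D sample 4, and 4 without 3D sample 2. Between the regions 9 were called, 3 without the variance trend, and between 6 and 10 with 1 sample left out. Over all genes, 517 were called between the cultures and 861 between the regions, against 362 and 324 without the variance trend, 978 and 1177 at an adjusted p under 0.05, and 736 and 1478 without the fold threshold. Leaving out 3D sample 3, 3D sample 4, 3D sample 1 or 2D sample 4 took the culture count to 161, 177, 271 and 296, and between the regions the count stayed between 649 and 850 with 1 sample left out. The causes of these shifts were not tested. The deviations of same-numbered samples from their group means had correlations between 0.01 and 0.50 in the cultures and between -0.07 and -0.04 in the regions, so the numbers were not taken as pairs. A block for the replicate number was also fitted, in which internal sample 4 has no counterpart and adds nothing. Under this block 0 members, 0 partners, 2 further pathway genes between the cultures and 7 between the regions were called, and the adjusted p of *Rad23b* was 0.0319. The culture log2 fold change of *Ercc1* was -0.03 with the block as without it, with an SE of 0.11 instead of 0.23. Its adjusted p with the block was 0.877 by limma. In the cultures, samples 3 and 4 of 2D and of 3D did not correlate best with their own number. Depth limits *Ercc5*, *Ddb2* and *Ercc4* most, with as few as 16, 26 and 33 reads in a sample.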

Other observations

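The level of *Ercc1* differed little between 2D and 3D cultures carrying the same number, at 8.52 and 8.51, 8.69 and 8.70, 7.82 and 7.75, and 8.27 and 8.23 log2 CPM, although the labels do not say that the numbers pair the samples. The largest of these 4 differences was 0.07. Only 4 of 11677 genes had a smaller largest difference, and 0 of the 879 genes within 1 log2 unit of its mean level did, the median of those being 0.61. This was noticed after the values had been seen and is given as a description.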
